A study of Homo sapiens with 6 samples.

Results

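The genes described here are 40 genes of the glutathione, thioredoxin and peroxiredoxin systems, taken by symbol from a count table of 59653 genes, and all 40 symbols were found in it. They were divided by role into 6 genes of glutathione synthesis, reduction and breakdown, 6 glutathione peroxidases, 12 glutathione transferases, 12 genes of the thioredoxin and peroxiredoxin arm and 4 glutaredoxins. The cells were SK-OV3, an ovarian cancer line of human origin labelled wild type in genotype, and their mRNA was sequenced 48 h after transfection at 50 nM. The siPVT1 group (3 libraries) received a pool of siRNAs against the long non-coding RNA PVT1, and the siControl group (3 libraries) a non-targeting pool. There is 1 cell line and 1 pool against PVT1, so a loss of PVT1 and any other effect of that pool cannot be told apart, and the labels do not say whether replicates came from separate cultures, so the p-values measure the spread between these libraries, which may be technical.

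Glutathione is made from glutamate, cysteine and glycine by glutamate-cysteine ligase and glutathione synthetase, is spent by peroxidases and transferases that reduce peroxides or conjugate reactive compounds, and is returned to its reduced form by glutathione reductase. The thioredoxin system works beside it: thioredoxin reductase passes electrons from NADPH to thioredoxin, which reduces peroxiredoxins, the main scavengers of hydrogen peroxide in many cells. Several of these genes are well-known targets of the transcription factor NRF2, which binds an antioxidant response element in their promoters.

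Between siPVT1 and siControl the 2 systems did not move as a block. Genes called lower lay in 4 of the 5 roles, namely SRXN1, GCLM, GCLC, TXNRD1, MGST1, GLRX2 and GSR, with between 16.5% (SRXN1) and 41.3% (GSR) of the siControl level left in siPVT1. MGST3 and the barely detected GSTM2 were called higher, and the phospholipid peroxidase GPX4 (1.94-fold) and the peroxiredoxin PRDX5 (1.74-fold) rose without reaching 2-fold. Other abundant members moved little: PRDX1, the most abundant member per length, kept 79.8% of its siControl level, and TXN and GSTO1 did not pass the test.

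A gene was called here at a Benjamini-Hochberg adjusted p under 0.05 from edgeR's quasi-likelihood test and a log2 fold change of at least 1 in size, and "rose" or "fell" stands for the adjusted p alone. Of the 40 members, 36 had enough counts to be tested. Among these 36, 7 were called lower, where 9.64% of all 19008 tested genes were, and 2 were called higher, where 11.8% were. By the adjusted p alone 13 members fell (28.4% of all tested genes did) and 10 rose (29.5% did), and 13 did not pass. Every siPVT1 library lay below every siControl library in 14 members (32.3% of all tested genes) and above in 10 (33.2%). The median log2 fold change was −0.14 over the 36 members and 0.0014 over all tested genes. The small changes depend on scaling: when libraries were scaled by their total count, which moved the median of all genes to −0.15, 20 members fell and 3 rose, the 3 being GPX4, MGST3 and PRDX5. The 7 genes that fell in addition were GSS, GPX1, GSTK1, TXN, TXNRD2, PRDX2 and GLRX5. GPX4, MGST3 and PRDX5 were also the only members that rose when both replicate 2 libraries were left out, while 12 fell.

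**Figure D1:**
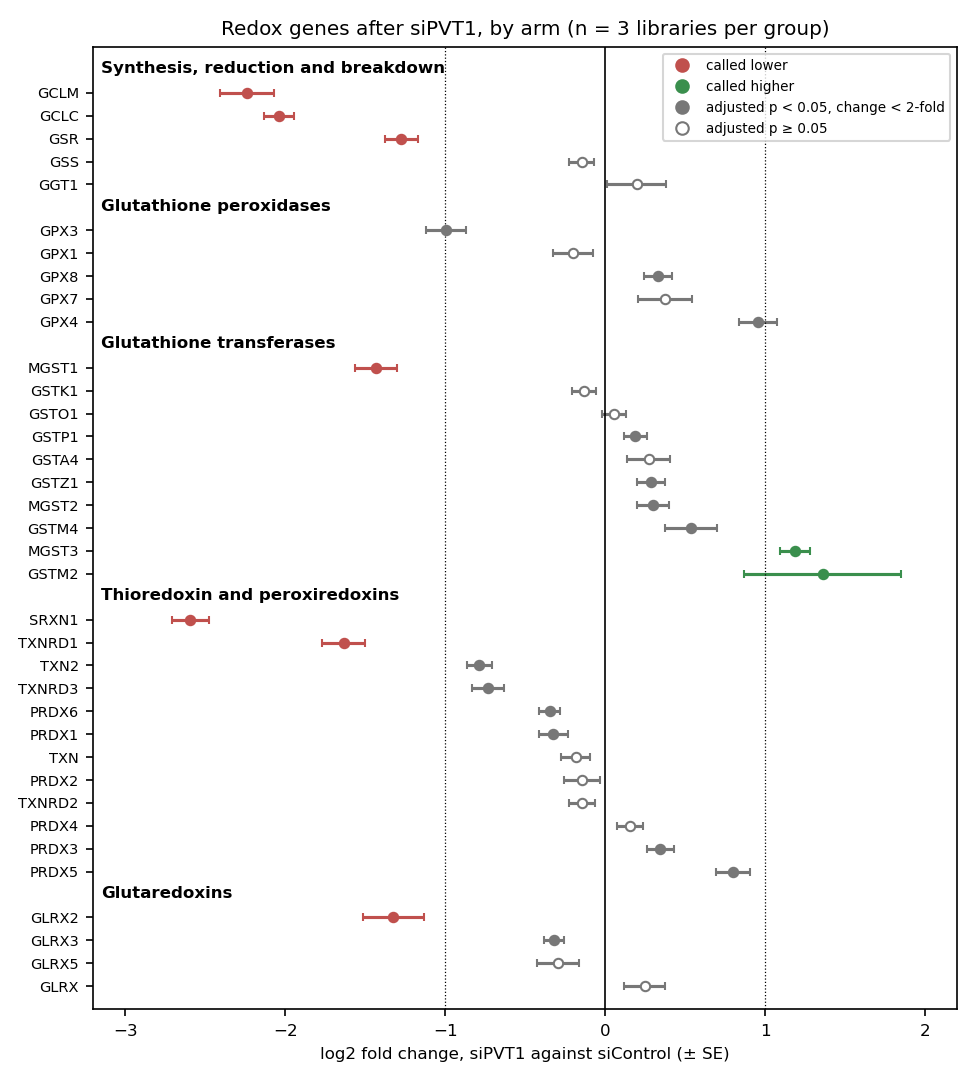
Log2 fold change of siPVT1 against siControl (x axis, bars are standard errors, 3 libraries per group) for the 36 tested members, grouped by role. Red and green points are called lower and higher, grey filled points passed the adjusted p without a 2-fold change, and open points did not pass. SRXN1 at −2.59 is the lowest and GSTM2 at 1.36 the highest, with by far the widest bar.

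Total counts ranged from 28383171 to 35059576 per library. PVT1 itself had normalised counts from 3298 to 4090.5 in siControl and from 2062 to 2350 in siPVT1 (log2 fold change −0.72, standard error 0.097, edgeR adjusted p = 0.000342), so the pool lowered its target without removing it. Markers of the labelled epithelial line (ERBB2, PAX8 and 4 keratins) were present in every library, with ERBB2 and KRT7 falling (log2 fold changes −0.43 and −0.51) and the other 4 rising in siPVT1, of which KRT19 was called (2.30). The erythroid markers were at 3 counts or fewer in every library, as were 3 of 5 leukocyte and 2 of 4 fibroblast markers. The leukocyte marker CD14 was called lower (−1.42), with 10, 6 and 8 counts in siControl and 3, 2 and 3 in siPVT1. The fibroblast marker PDGFRA was called higher (2.11), with 7, 9 and 0 counts against 31, 23 and 10. LUM, another fibroblast marker, had between 2 and 24 counts and was not called. All 4 endothelial markers were called higher in siPVT1, with a summed normalised count from 2066 to 2110.4 in siControl and from 8665 to 10932 in siPVT1, nearly all of it CDH5, and their part in the results below was not tested. Both replicate 2 libraries held transcripts of LYZ, TFF1 and REG4 that the others nearly lacked (REG4 had 238 counts in siControl replicate 2 and 59 in siPVT1 replicate 2, against 2 to 12 elsewhere). These 3 genes were picked out after their values had been seen. In bulk RNA, fewer cells of a kind and less RNA per cell cannot be told apart.

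Both subunits of glutamate-cysteine ligase, the rate-limiting enzyme of glutathione synthesis, fell. GCLC, the catalytic subunit, stood at 2482, 2359 and 2532 normalised counts in siControl (here and below in the order of replicates 1, 2 and 3) and at 533, 581 and 675 in siPVT1. The groups were far apart, and the mean went from 2458 ± 89.0 to 596 ± 71.8 (SD, n = 3 each) (log2 fold change −2.04, standard error 0.093, edgeR adjusted p = 1.86e-06). GCLM, the modifier subunit that raises the activity of GCLC, had 3289, 3211 and 3338 in siControl and 532, 646 and 901 in siPVT1. Its fall was of like size, −2.24 (standard error 0.167, edgeR adjusted p = 1.63e-05), but the siPVT1 libraries spread more, with the value in replicate 3 well above that in replicate 1. GSR, the reductase that regenerates glutathione from its disulfide, had 4571, 4275 and 4559 in siControl and 1606, 1799.5 and 2135 in siPVT1, without overlap, for a log2 fold change of −1.27 (standard error 0.102, edgeR adjusted p = 2.30e-05).

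The next enzyme on the path did not pass the test. GSS, glutathione synthetase, had 2145, 1925 and 2111 in siControl and 1976, 1890.2 and 1716 in siPVT1, ranges that overlap, with a log2 fold change of −0.15 (standard error 0.076, edgeR adjusted p = 0.131). GSS fell with total-count scaling (−0.30, edgeR adjusted p = 0.00655) and without siPVT1 replicate 1 (−0.21, edgeR adjusted p = 0.0350). GGT1, a cell surface enzyme that begins the breakdown of glutathione outside the cell, had between 281 and 405 normalised counts in siControl and between 327 and 482 in siPVT1, and did not pass either (edgeR adjusted p = 0.388). GGT5, a relative of GGT1, had at most 6 counts in any library and was not tested. Of the 6 genes of this role, 5 were tested, with 3 called lower, 0 called higher and a median log2 fold change of −1.27.

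**Figure D2:**
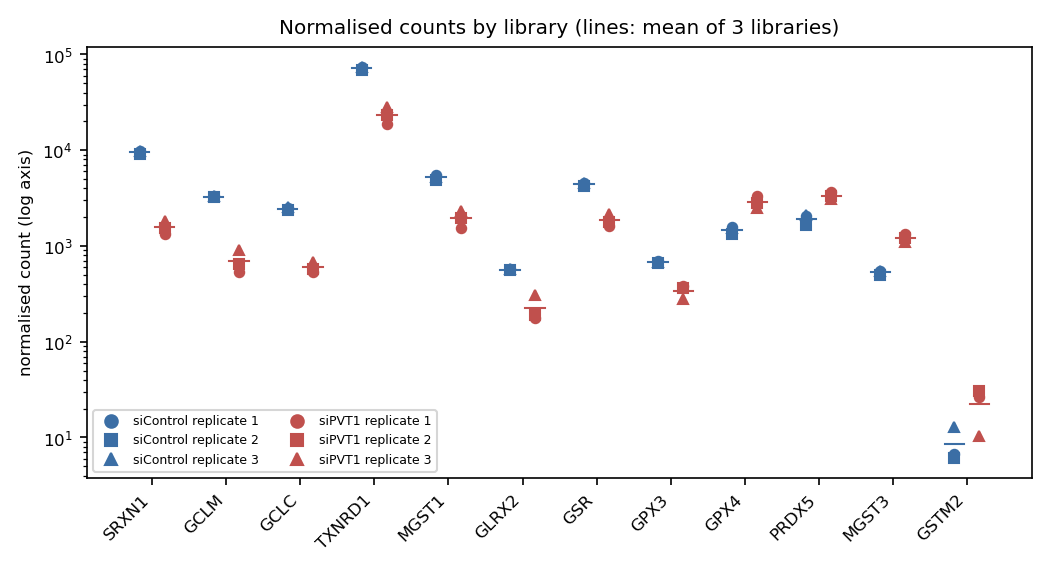
Normalised counts (y axis, log scale) in each of the 3 siControl (blue) and 3 siPVT1 (red) libraries for the 9 called members and for GPX3, GPX4 and PRDX5; symbols mark the replicate and lines the group mean. The groups do not overlap for any gene shown except GSTM2.

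The peroxidases went in different directions, and none of the 5 tested was called. GPX4, the selenoenzyme that reduces lipid hydroperoxides in membranes and protects from ferroptosis, rose in every siPVT1 library. Its normalised counts were 1588, 1339.6 and 1525 in siControl and 3355, 2817 and 2473 in siPVT1 (log2 fold change 0.96, standard error 0.118, edgeR adjusted p = 0.000216), and it reached 2-fold and was called without siControl replicate 1 (edgeR adjusted p = 0.00131) or siPVT1 replicate 3 (log2 fold change 1.04). GPX3, the secreted plasma peroxidase, fell from 697, 663 and 682 to 383, 368 and 276. The log2 fold change of GPX3, −0.99 (standard error 0.124, edgeR adjusted p = 0.000231), lay just inside the 2-fold threshold, and it was called with DESeq2 (−1.01), with total-count scaling (−1.14) and without siPVT1 replicate 1 (−1.10). It was called too with the size factors of DESeq2 in edgeR (−1.007) and with the replicate number as a block (−1.003). The same held without siControl replicate 2 (−1.01), siPVT1 replicate 2 (−1.06) or both (−1.07).

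GPX1, the abundant cytosolic peroxidase and the highest of this role per length, had 3953, 3507 and 3956 in siControl and 3979, 3159.9 and 2787 in siPVT1. Its groups overlapped, because siPVT1 replicate 1 lay above all siControl libraries, and the log2 fold change of −0.20 (standard error 0.125) did not pass (edgeR adjusted p = 0.198). GPX1 fell without siPVT1 replicate 1 (−0.37, edgeR adjusted p = 0.0041) and with total-count scaling (edgeR adjusted p = 0.0346). GPX8, a peroxidase of the endoplasmic reticulum and the member of this role with the largest mean normalised count in siPVT1, rose from 3364 ± 153 to 4229.6 ± 459.6 (SD, n = 3 each) (log2 fold change 0.33, standard error 0.086, edgeR adjusted p = 0.0108). GPX8 did not pass with total-count scaling (edgeR adjusted p = 0.0858) or without both replicate 2 libraries (0.119). GPX7, its close relative in the same compartment, was low, with 73.9 to 94.3 in siControl and 91.3 to 125 in siPVT1, and did not pass (edgeR adjusted p = 0.0865). Without siPVT1 replicate 1 GPX7 rose (0.47, edgeR adjusted p = 0.0407).

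GPX2, a peroxidase of digestive epithelium, was not tested. The libraries held 2, 58 and 0 of its counts in siControl and 2, 13 and 1 in siPVT1. The replicate 2 library of each group was thus the only one of its group with more than 2 counts, as it was the highest for LYZ, with 19, 246 and 5 counts in siControl and 14, 79 and 13 in siPVT1. GSTA1, a transferase outside the 40, followed the same order (10, 74 and 2 against 6, 21 and 1 counts). Whether these reads share a source with LYZ, TFF1 and REG4 was not tested.

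Among the transferases, the microsomal enzymes of 1 family moved in opposite directions. MGST1, a membrane-bound transferase and peroxidase, had normalised counts of 5485, 4916 and 5308 in siControl and of 1555, 1959 and 2305 in siPVT1. The groups were far apart, and the log2 fold change was −1.43 (standard error 0.131, edgeR adjusted p = 4.54e-05). MGST3 had 552, 501 and 542 in siControl and 1349, 1198 and 1087 in siPVT1 (log2 fold change 1.19, standard error 0.095, edgeR adjusted p = 2.33e-05). MGST2, which can conjugate glutathione to leukotriene A4, rose by less, from 444 ± 46.7 to 547 ± 33.5 (SD, n = 3 each; log2 fold change 0.30, edgeR adjusted p = 0.0314), and did not pass without siControl replicate 1 or 2 or siPVT1 replicate 1 or 2 (edgeR adjusted p from 0.0625 to 0.0909). Per length, MGST1 was 5661 normalised counts per kb in siControl against 459 for MGST3, and in siPVT1 these levels were 2097 and 1046.

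The 2 most abundant soluble transferases hardly differed. GSTO1, the omega class enzyme with the largest mean count of the role in siPVT1, had 5094, 4494 and 5233 in siControl and 5428, 4997 and 4949.9 in siPVT1. Its groups overlapped, with a log2 fold change of 0.05 (standard error 0.075, edgeR adjusted p = 0.576) that turned negative with total-count scaling. GSTP1, the pi class enzyme common in tumour cells, had 3855, 3493 and 3909 in siControl and 4101, 4187 and 4552 in siPVT1. Its rise of 0.19 (standard error 0.070, edgeR adjusted p = 0.0457) was the smallest that passed, and it did not pass with the replicate number as a block (edgeR adjusted p = 0.0553), without a filter on low counts (0.0654), with total-count scaling (0.581), or without any 1 library other than siPVT1 replicate 1 (0.0501 to 0.130). GSTZ1, an enzyme of tyrosine breakdown, rose by 0.29 (edgeR adjusted p = 0.0225) but did not pass with DESeq2 (adjusted p = 0.0600), without a filter (0.0595), or without siControl replicate 1 or 3 or siPVT1 replicate 1 or 2 (0.0687 to 0.0949). GSTK1 and GSTA4 had log2 fold changes of −0.13 and 0.27 and did not pass (edgeR adjusted p = 0.167 and 0.121).

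The mu class was low. GSTM1 had at most 7 and GSTM3 at most 11 counts in any library, and neither was tested. GSTM2 had 7, 6 and 14 counts in siControl and 24, 28 and 11 in siPVT1, so that siPVT1 replicate 3 lay below siControl replicate 3, and its call as higher (log2 fold change 1.36, standard error 0.490, edgeR adjusted p = 0.0423) was lost with DESeq2 (adjusted p = 0.0516), with the replicate number as a block (edgeR adjusted p = 0.0886) and without siControl replicate 1 or 2 or siPVT1 replicate 1 or 2 (edgeR adjusted p from 0.101 to 0.147). GSTM4 rose from 120.0 ± 11.5 to 174 ± 32.3 normalised counts (SD, n = 3 each; log2 fold change 0.54, edgeR adjusted p = 0.0211), and did not pass without siControl replicate 2 or 3 or siPVT1 replicate 1 or 2 (edgeR adjusted p from 0.0532 to 0.0891). GSTM1, GSTM2 and GSTM4 are neighbouring paralogs on chromosome 1, and in GENCODE v44 the span of GSTM2 (109668022 to 109709551, GRCh38) covers that of GSTM1 (109687814 to 109709039), so reads could be divided between them. Summed over GSTM1 to GSTM5, normalised counts were 140.0, 138 and 128 in siControl and 226, 241 and 149 in siPVT1 (log2 fold change 0.60, standard error 0.180, edgeR adjusted p = 0.0209) that was not called. Over the 10 tested transferases, 1 was called lower and 2 higher, 1 fell and 6 rose by the adjusted p alone, and the median log2 fold change was 0.28 (0.13 with total-count scaling).

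In the thioredoxin arm the cytosolic reductase and the repair enzyme were called lower, while cytosolic thioredoxin did not pass and the peroxiredoxins went in both directions. TXNRD1, the cytosolic selenoenzyme that reduces thioredoxin, had normalised counts of 74698, 68732 and 74534 in siControl and of 18783, 23119 and 28313 in siPVT1. The mean went from 72655 ± 3398 to 23405 ± 4771 (SD, n = 3 each) (log2 fold change −1.63, standard error 0.136, edgeR adjusted p = 2.78e-05). SRXN1, sulfiredoxin, which repairs peroxiredoxins whose active cysteine has been over-oxidised, had 9704, 9031 and 9739 in siControl and 1331, 1534 and 1844 in siPVT1. It had the largest change of all tested members, −2.59 (standard error 0.116, edgeR adjusted p = 1.65e-06). TXN, cytosolic thioredoxin, had 10197, 8689 and 10138 against 7901, 8155 and 9479. The groups overlapped, and the log2 fold change of −0.18 (standard error 0.092) did not pass (edgeR adjusted p = 0.120).

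The mitochondrial partners split differently. TXN2, mitochondrial thioredoxin, fell from 1107, 1039 and 1168 to 664, 658 and 599 (log2 fold change −0.79, standard error 0.078, edgeR adjusted p = 6.92e-05). Its reductase TXNRD2 had 864, 737 and 826 in siControl and 716, 752 and 730.1 in siPVT1, ranges that overlap (log2 fold change −0.14, standard error 0.080, edgeR adjusted p = 0.161). Thus, in the cytosol the reductase was called and the thioredoxin did not pass, and in mitochondria the thioredoxin fell and the reductase did not pass. With total-count scaling TXN and TXNRD2 fell too (edgeR adjusted p = 0.00823 and 0.00799). TXN also fell without siPVT1 replicate 3 (edgeR adjusted p = 0.00301). No difference between a thioredoxin and its reductase was tested. TXNRD3, the testis-enriched relative with a glutaredoxin domain, was low and fell from 258, 254 and 255 to 163, 161 and 139 (log2 fold change −0.73, edgeR adjusted p = 0.000412).

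The 6 peroxiredoxins all changed by less than 2-fold. PRDX1, the most abundant member per length in both groups, had 22302, 19758 and 22345 in siControl and 15774, 16346 and 19292 in siPVT1. The lowest siControl library was only just above the highest siPVT1 library, and the log2 fold change was −0.32 (standard error 0.090, edgeR adjusted p = 0.0146). PRDX1 did not pass without siControl replicate 1 or 3 or without both replicate 2 libraries (edgeR adjusted p from 0.0524 to 0.0662). PRDX6, the peroxiredoxin that works with glutathione in place of thioredoxin, fell by a like amount, from 6150.0 ± 389 to 4832 ± 200.3 (SD, n = 3 each; −0.35, edgeR adjusted p = 0.0024). PRDX3, which is confined to mitochondria, had 4012, 3866 and 4202 against 4649, 4934 and 5749.5 and rose (log2 fold change 0.34, standard error 0.086, edgeR adjusted p = 0.00871). This rise did not pass with total-count scaling (edgeR adjusted p = 0.0692) or without both replicate 2 libraries (0.0831). PRDX5, found in mitochondria, peroxisomes and cytosol, rose further, from 2031, 1639 and 2105 to 3639, 3323 and 3080.1 (log2 fold change 0.80, standard error 0.106, edgeR adjusted p = 0.000335). Cytosolic PRDX2 (−0.14, edgeR adjusted p = 0.312) and PRDX4 of the endoplasmic reticulum (0.15, edgeR adjusted p = 0.147) did not pass. The median log2 fold change of this arm was −0.25 over 12 tested genes, with 2 called lower, 0 called higher, 6 that fell and 2 that rose, and the median was −0.40 with total-count scaling.

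The glutaredoxins are small oxidoreductases that draw on glutathione. GLRX2, a mitochondrial form, had 570.4, 557 and 573 in siControl and 176, 192 and 307 in siPVT1 (log2 fold change −1.32, standard error 0.190, edgeR adjusted p = 0.000496). The siControl libraries were nearly equal, while siPVT1 replicate 3 held clearly more than the other siPVT1 libraries. GLRX3, a cytosolic iron-sulfur protein with the largest mean normalised count of the 4, fell from 3674, 3390.4 and 3530.5 to 2778, 2716 and 2999 (−0.32, standard error 0.064, edgeR adjusted p = 0.00306). GLRX5, which serves iron-sulfur cluster assembly in mitochondria, and GLRX, the classical cytosolic form, had log2 fold changes of −0.29 and 0.25 and did not pass (edgeR adjusted p = 0.0903 and 0.134). Both passed without siPVT1 replicate 3 (−0.45 and 0.37, edgeR adjusted p = 0.00151 and 0.00118). The median of the 4 was −0.31.

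The core of the antioxidant response element, the letters TGACNNNGC, was searched on both strands of the RefSeq promoters (GRCh38.p14, 250 bases before to 50 after each annotated start), in which 32 of the 40 members were found. It occurred in at least 1 promoter of 9 of these 32 members and in 16.1% of all 27305 genes with a promoter. Of the 7 members called lower, 6 had a promoter and 3 of these held the core (GCLM, MGST1 and TXNRD1). It was in 4 of 21 members that were tested and not called (GGT1, GSTA4, GSTO1 and GSTP1) and in neither gene called higher. The windows below are shown because the same letters stood near the start of genes called lower and of genes that were not, with 1 of the 3 matches of TXNRD1 and 1 of the 2 of GSTO1. Each is given 5′ to 3′ on the strand of the gene, with the core in capitals (where it lies on the other strand, the capitals are its reverse complement).

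GCLM promoter, chr1:93909446-93909474, core on the other strand from 34 bases before the start: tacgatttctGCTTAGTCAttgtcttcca
TXNRD1 promoter, chr12:104215670-104215698, core from 99 bases before the start: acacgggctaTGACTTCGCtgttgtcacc
MGST1 promoter, chr12:16347135-16347163, core from 30 bases after the start: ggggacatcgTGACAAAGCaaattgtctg
GSTP1 promoter, chr11:67583736-67583764, core from 66 bases before the start: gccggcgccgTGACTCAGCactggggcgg
GSTO1 promoter, chr10:104254656-104254684, core from 226 bases before the start: ggcggagggaTGACTGAGCatttataact
GPX2 promoter, chr14:64942849-64942877, core on the other strand from 122 bases before the start: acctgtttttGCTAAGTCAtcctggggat

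GCLM and TXNRD1 were called lower, with log2 fold changes of −2.24 and −1.63, and MGST1 likewise at −1.43. GSTP1 and GSTO1, with matches on the strand of the gene, were at 0.19 and 0.05, and GPX2 was not tested. The promoters of GCLC, SRXN1 and GLRX2, also called lower, held no match within this window. A match is a stretch of letters and not a measured binding site, and no binding was measured here.

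Ratios of counts within a library do not depend on how libraries are scaled against each other. The ratio of TXNRD1 to TXNRD2 was 86.4, 93.1 and 90.2 in siControl and 26.2, 30.7 and 38.8 in siPVT1, without overlap. On the log2 scale it went from 6.49 ± 0.054 to 4.98 ± 0.284 (SD, n = 3 each), a difference of −1.51 (p = 0.1 by an exact permutation test, two-sided, which cannot go lower with 3 libraries against 3). The ratio of PRDX1 to PRDX3, the cytosolic against the mitochondrial peroxiredoxin, was 5.56, 5.11 and 5.32 in siControl and 3.39, 3.31 and 3.36 in siPVT1, a log2 difference of −0.67 (same exact test, p = 0.1). The siPVT1 libraries nearly coincided in this ratio, with an SD of 0.017 on the log2 scale. The ratio of GCLM to GCLC was 1.33, 1.36 and 1.32 in siControl but 0.998, 1.11 and 1.34 in siPVT1, where replicate 3 was within the siControl range, and the log2 difference of −0.23 came with p = 0.3 in the exact permutation test. The 3 ratios were the only ones computed, and with a smallest p of 0.1 none could pass 0.05 before or after adjustment.

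**Figure D3:**
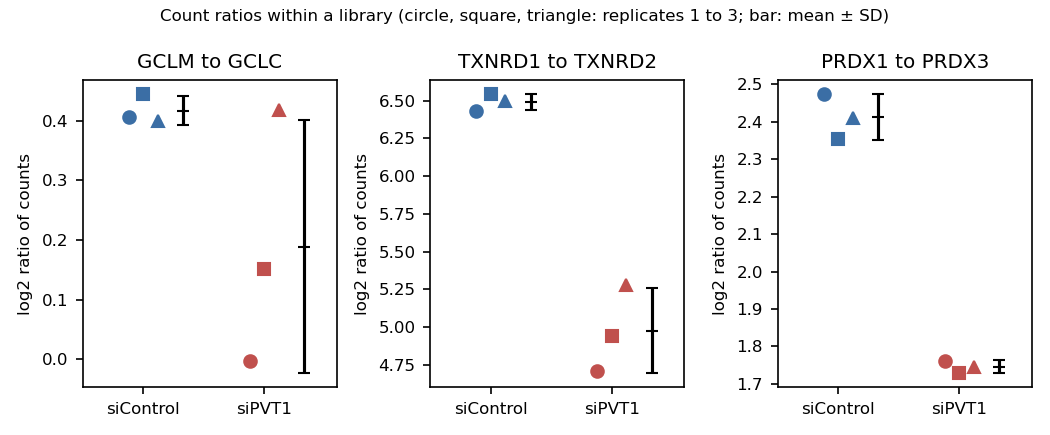
Log2 ratio of counts within each library (y axes, different ranges that do not start at 0) for GCLM to GCLC, TXNRD1 to TXNRD2 and PRDX1 to PRDX3, with the mean and SD of 3 libraries beside the points. The groups are apart for TXNRD1 to TXNRD2 and for PRDX1 to PRDX3, while siPVT1 replicate 3 reaches the siControl libraries for GCLM to GCLC.

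The order of the members by level also changed. Levels of different genes were compared as normalised counts per kb of the Ensembl canonical transcript, which ignores other isoforms. In siControl the highest were PRDX1 (22718 per kb), TXNRD1 (18822) and TXN (13127), and in siPVT1 they were PRDX1 (18135), TXN (11549) and GSTO1 (6304), with TXNRD1 in place 4 at 6063. SRXN1 went from place 8 of 40 to place 20 and MGST1 from 5 to 14, while GPX4 went from 15 to 8 and PRDX5 from 12 to 6. TXNRD1 alone took between 0.240% and 0.250% of all counts of a siControl library and between 0.0571% and 0.0859% of a siPVT1 library. The other 39 members together took between 0.334% and 0.356% in siControl and between 0.242% and 0.261% in siPVT1.

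**Figure D4:**
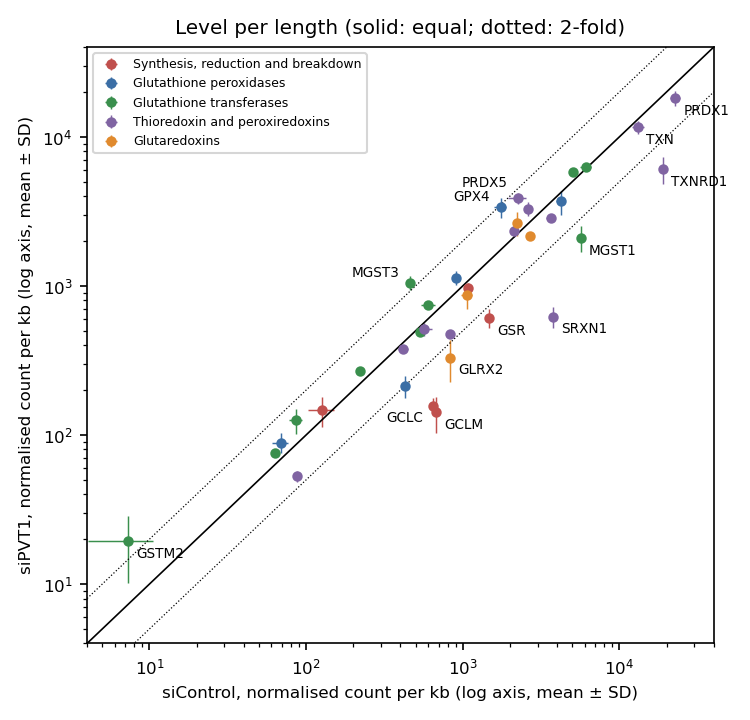
Mean normalised count per kb of transcript in siControl (x axis) and siPVT1 (y axis), both on log scales with SD bars (n = 3), for the 36 tested members coloured by role. Genes on the solid line are equal and dotted lines mark 2-fold; SRXN1, GCLM and GCLC lie furthest below.

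The 7 members called lower shared an order of the siPVT1 libraries. MGST3, called higher, ran in reverse, with 1349, 1198 and 1087 normalised counts in siPVT1 replicates 1, 2 and 3. Its change was thus also largest in replicate 1 and smallest in replicate 3. GSTM2, also called higher, followed neither order (26.7, 30.6 and 10.3). For each of the 7, siPVT1 replicate 1 was the lowest of the group and replicate 3 the highest. Over all 1833 genes called lower, replicate 3 was the highest in 926 (50.5%) and replicate 1 the lowest in 904. The share of these genes that met both conditions was not computed. The order was not particular to the 7. It held also for GPX8, GSTP1 and PRDX3, which rose, for PRDX1 and PRDX6, which fell without being called, and for TXN, PRDX4 and GLRX5, which did not pass. The median level left over the 7 genes called lower was 25.9%, 31.8% and 39.0% of the siControl mean in replicates 1, 2 and 3, and over all 1833 genes it was 31.7%, 33.9% and 36.4%. GLRX2 spread most, from 31.1% to 54.2%, and SRXN1 stayed between 14.0% and 19.4%. The remaining PVT1 ran in the reverse order of the 7 genes, with normalised counts of 2350, 2111 and 2062 in replicates 1, 2 and 3. A link between the orders was not tested. All 7 genes were called lower also when siPVT1 replicate 1, the lowest for each, was left out. The smallest changes were then those of GLRX2 (−1.19) and GSR (−1.20). They were called lower too without replicate 3, where larger falls follow from the order itself.

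**Figure D5:**
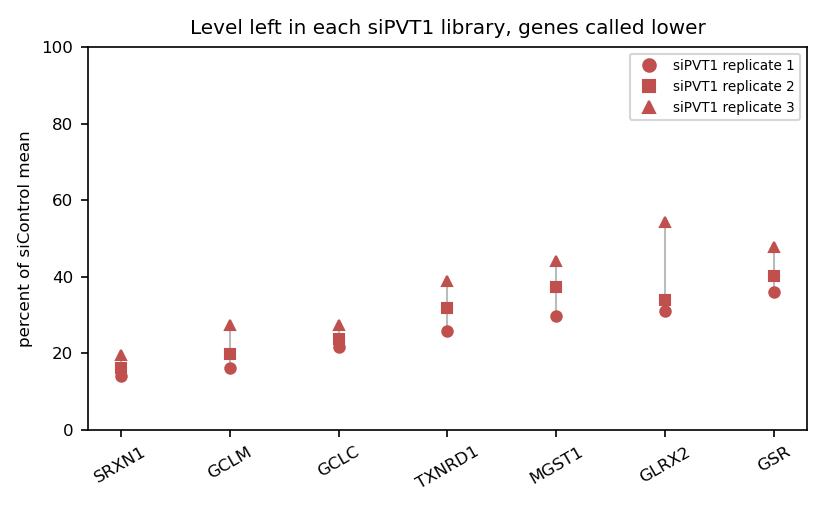
Normalised count in each siPVT1 library as a percentage of the siControl mean (y axis) for the 7 members called lower; symbols mark the replicate. Replicate 3 is the highest and replicate 1 the lowest for every gene, from SRXN1 (14.0% to 19.4%) to GSR.

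Other features that the members share did not divide them by direction. Of 7 selenoproteins (the peroxidases GPX1 to GPX4 and the 3 thioredoxin reductases), 6 were tested, of which TXNRD1 was called lower, 3 fell and 1 rose by the adjusted p alone, and the median log2 fold change was −0.47. Among 9 genes of selenocysteine synthesis and insertion, SCLY, which recovers selenium from selenocysteine, was called lower (log2 fold change −2.07). PSTK, a kinase of the selenocysteine tRNA pathway, was called lower too (−1.25). Thus 2 of 9 were called lower against 9.64% of all tested genes, and 0 were called higher against 11.8%. With 9 genes, neither count can be set apart from these shares. By place in the cell, the 5 members assigned to mitochondria alone had a median of −0.29. The 19 tested cytosolic members had a median of −0.18. For the 8 tested members that are secreted or sit in membranes or the endoplasmic reticulum it was 0.25. GSR, GPX4, GSTK1 and PRDX5 were assigned to several places and had a median of 0.33. Each of these classes held both directions.

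A written list of 32 other glutathione genes had 21 tested, of which 5 were called lower and 4 higher (9.64% and 11.8% of all tested genes). The lower genes included both chains of the cystine importer that feeds glutathione synthesis, SLC7A11 (−3.29) and SLC3A2 (−1.93), and the glutathione-degrading enzymes CHAC1 (−1.55) and CHAC2 (−1.31), besides GSTO2 (−1.67). Called higher were PTGES (5.98), which makes prostaglandin E2 with glutathione as cofactor, GGT7 (2.07), OPLAH (1.98), which returns 5-oxoproline to glutamate, and HAGH (1.07) of methylglyoxal removal. Thus the step before ligation (SLC7A11, SLC3A2), ligation (GCLC, GCLM) and reduction (GSR) were called lower. GSS between them did not pass, except with total-count scaling or without siPVT1 replicate 1. In a list of 25 other genes with a thioredoxin fold or a thioredoxin-linked role, 23 were tested, of which 3 were called lower (the thioredoxin inhibitor TXNIP at −1.82, TXNL4B at −1.46 and SESN2 at −1.23) and 2 higher (NXN at 1.86 and SESN3 at 1.23), counts that are near the 9.64% and 11.8% of all tested genes. TXNIP had normalised counts of 1917, 1229 and 553 in siPVT1 replicates 1, 2 and 3 against 4118 to 4468 in siControl, so here replicate 3 was the lowest library.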

How the data were processed

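RNA of SK-OV3 cells was analysed in 3 siControl and 3 siPVT1 libraries, grouped by their titles. The authors sequenced single-end mRNA libraries, aligned reads to the GENCODE transcriptome of GRCh38 with STAR 2.7.3a, counted with Salmon 0.14.1 (versions from the submitters' processing notes) and deposited their estimated counts as unnormalized whole numbers, a row for each gene symbol. The strand setting is not given in the sources used here, and Salmon divides reads between paralogs by estimation.

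From the deposited counts, libraries were scaled by TMM and compared by the quasi-likelihood test of edgeR 4.0.16 under R 4.3.3, with siRNA as the only term. The 19008 genes that reached 5 normalized counts in 3 or more libraries were tested, with Benjamini-Hochberg adjustment over all of them. Normalized counts are counts divided by the effective library size and multiplied by its mean. Standard errors are the log2 fold change over the square root of F. The fits were tested on simulated data. Replicates differed by more than sampling noise (chi-square per degree of freedom from 1.75 to 45.3). Ratios were tested in scipy 1.17.1 with 0.5 added to each count. Lengths and coordinates came from GENCODE v44, promoters from RefSeq.

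In full are named the called members, the most abundant of each role and those of the ratios. The members and lists were chosen with earlier results of these data known. Alternatives were DESeq2 1.42.0, other scalings, filters and thresholds, a replicate block, each library left out and, added after seeing the data, both replicate 2 libraries left out.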

Additional observations from a re-analysis of the deposited data

How the results depend on the processing

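SRXN1, GCLM, GCLC, TXNRD1, MGST1 and GSR were called lower under all alternatives run. GLRX2 was lost only in the test against a 2-fold change (adjusted p = 0.137), where 6 members were lower, 0 higher and 1976 genes called in place of 4081. By the adjusted p alone 13 members were lower, 10 higher and 11007 genes called. The 2 members called higher became 1 with DESeq2, total-count scaling, the replicate block or both replicate 2 libraries left out, each time by the loss of GSTM2, and MGST3 was lost in the test against a 2-fold change (adjusted p = 0.0946). With 1 library left out, between 1 and 3 members were called higher. Total-count scaling moved the medians of the transferases to 0.13 and of the thioredoxin arm to −0.40. Same-numbered libraries did not deviate together (correlations −0.037, 0.029 and 0.0023), so they were not treated as pairs, although both replicate 2 libraries shared the LYZ, TFF1 and REG4 reads, and siControl replicate 1 correlated best with siPVT1 replicate 3. Of 540 member values under the alternatives, 4 turned sign, in GSTO1 and GGT1, neither of which had passed. GGT5, GPX2, GSTM1 and GSTM3 missed the filter on low counts and allow no comparison at this depth.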
